A study of Urocitellus parryii with 3 samples.

Results

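A group of entries on a mouse microRNA (miRNA) array was followed at 3 stages of a hibernating rodent's year: mmu-miR-709, mmu-miR-1224, mmu-miR-494, mmu-miR-720, mmu-miR-188-5p, mmu-miR-483, mmu-miR-671-5p, mmu-miR-705, mmu-miR-711 and mmu-miR-762, written below without the prefix for mouse. They are 10 of the 567 mouse entries, and of the 577 entries in all, on the microarray used. They were listed by name as entries that are often bright on arrays of this kind, through their sequence or through fragments of other RNA, and the list was selected on the stage differences and detection of several of them in early arousal on these same arrays. The stage differences below are therefore a description, with no test. The working label of the list, GC-rich and disputed entries raised in arousal, held for some of the entries and not for others: miR-720 was brightest in post-reproduction, miR-705 was about equally bright in early arousal and late torpor, and miR-711 and miR-762 were detected on no array. Base composition was not analysed here.

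Liver total RNA of arctic ground squirrels (Urocitellus parryii) was taken at 3 stages, named EA, LT and PR in the labels. EA is early arousal, when a torpid animal rewarms. LT is late torpor, the cold and inactive state before it, and PR is post-reproduction, outside the hibernation season. The labels give no genotype, treatment or age for any stage. Each stage was 1 pool of equal amounts of RNA from its animals, hybridised with the dye Cy3 to 1 array, so pool, array and stage cannot be told apart, and no value below has an error between animals. The labels do not say how many animals a pool holds. The probes were designed on mouse miRNAs and the RNA was squirrel RNA.

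A miRNA is a short RNA that is cut from a hairpin precursor and guides Argonaute proteins to messenger RNAs with a matching seed, which lowers their stability or translation. Some names in miRNA catalogues were later disputed because the reads behind them are fragments of other RNA. miR-720 is the standard example: it derives from a transfer RNA, and its name was withdrawn. On Agilent miRNA arrays an entry has up to 4 probes whose target stretches share an end and are cut to different lengths so that the duplexes melt alike, and GC-rich targets then receive shorter stretches.

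The other entries have varied histories. miR-709 is known as a mainly nuclear small RNA in mouse cells, where it was reported to bind the transcript of miR-15a and miR-16. miR-1224 is a mirtron, a miRNA whose hairpin is a whole short intron. miR-494 belongs to the large imprinted miRNA cluster between Dlk1 and Dio3. miR-483 lies in an intron of Igf2, the fetal growth factor gene, and miR-188 in an intron of the chloride channel gene Clcn5. miR-671-5p is known for directing the cleavage of the circular RNA Cdr1as. These roles come from mouse and human work and were not measured here.

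Intensities are the deposited spot signals in arbitrary units, given as the mean over a probe's kept spots with the SD of those spots. A probe was called detected where more than 50% of its spots were well above background by the scanner program's flag. An entry with a probe detected on all 3 arrays is called measured, and 135 mouse entries were. Detection reached 152 of the 567 mouse entries in EA, 158 in LT and 143 in PR. The dimmest spot called well above background had 10.1 intensity units in EA, 8.49 in LT and 10.7 in PR. miR-122, the main hepatocyte miRNA, was measured on every array, and its log2 difference was 0.14 for EA minus PR and -0.20 for EA minus LT.

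Of the 10 listed entries, 8 were detected in EA, 7 in LT and 4 in PR. The 4 that were measured on all arrays are miR-709, miR-1224, miR-494 and miR-720. Summed over the brightest probe of each entry, the 10 entries had 8122 intensity units in EA, 7754 in LT and 9541 in PR. That sum followed miR-720. Without it the other 9 summed to 1515 in EA, 771 in LT and 553 in PR.

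miR-709 was highest in EA and lowest in PR on both of its probes. The mouse target is at 86610073 to 86610084 on chromosome 8 of build mm9. Its probe with target ends 11 bases apart had 99.9 ± 3.21 intensity units in EA, 41.9 ± 2.26 in LT and 29.6 ± 2.55 in PR (SD over 10 spots each). The ranges of 1 SD did not overlap between the arrays. The probe with ends 10 bases apart had 37.4 ± 2.06, 15.6 ± 2.30 and 10.5 ± 2.42 units in EA, LT and PR. In PR only 4 of its 10 spots were well above background, so it did not count as measured.

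miR-1224 was also highest in EA and lowest in PR. The target is at 20604534 to 20604545 on mouse chromosome 16 (mm9), and the 4 probes have ends 8 to 11 bases apart. The longest probe had 1121 ± 24.9 units in EA, 534 ± 28.7 in LT and 401 ± 18.6 in PR (5 spots each). The next probe, with ends 10 bases apart, had 541 ± 18.9 in EA, 262 ± 11.2 in LT and 178 ± 7.99 in PR. The same order of stages held on the probe with ends 9 bases apart, at 175 ± 4.99, 79.1 ± 2.74 and 53.9 ± 4.56. The shortest probe was close to background, with 10.4 units in EA, 7.84 in LT and 4.30 in PR, and was detected only in EA.

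miR-494 showed the same order of stages with smaller steps. It is assigned to 110953584 to 110953598 on mouse chromosome 12 (mm9). The probe with ends 13 bases apart had 212 ± 10.4 units in EA, 151 ± 5.81 in LT and 100.3 ± 5.09 in PR (10 spots each). The probe with ends 14 bases apart had 73.6 ± 2.98, 56.4 ± 2.86 and 35.1 ± 3.21. On both probes LT lay between the other stages.

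miR-720 went the other way. The array design places it at 88920532 to 88920543 on mouse chromosome 3 (mm9). The probe with ends 11 bases apart had 6607 ± 224 units in EA, 6983 ± 131 in LT and 8988 ± 190.1 in PR (10 spots each). The probe with ends 10 bases apart had 1153 ± 22.6, 1308 ± 23.7 and 1652 ± 46.6. EA was lowest and PR highest on both, before any scaling between arrays.

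**Figure D1:**
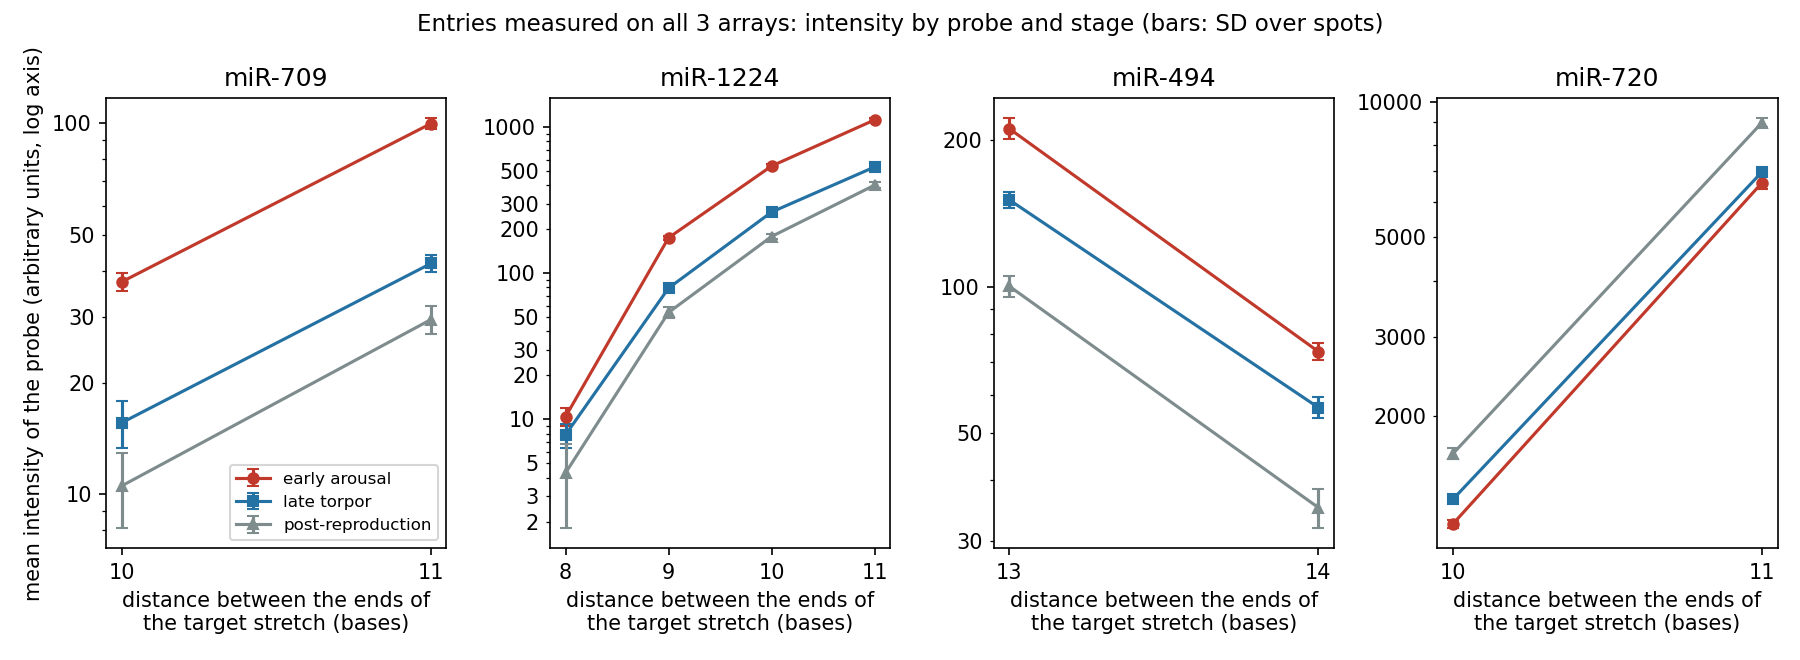
Mean intensity (arbitrary units, log axis) of each probe of miR-709, miR-1224, miR-494 and miR-720 against the distance in bases between the ends of its target stretch. Circles are EA, squares LT and triangles PR, with bars for the SD over spots. The stages keep their order from probe to probe: EA is on top for the first 3 entries and PR for miR-720, whose longer probe had 6607, 6983 and 8988 units in EA, LT and PR.

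To compare arrays, log2 intensities were scaled to each array's 75th percentile, taken over 250 probes that all 3 arrays detected. It was 350.4 units in EA, 349 in LT and 398 in PR. Folds between stages below are on that scale, so a fold of EA or LT over PR is larger than the ratio of the intensities above. The rule of size asked for a log2 difference of 1 or more (2-fold) that exceeded 2 times its standard error (SE), with 1 sign on all measured probes of the entry. The SE and the 95% intervals come from spots and do not cover differences between animals, pools or arrays. A bulk array cannot tell fewer cells of a type from less of the RNA per cell.

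EA against PR gave the widest differences of the list. miR-709 was higher in EA by a log2 difference of 1.94 ± 0.04 (SE), or 3.85-fold (3.63 to 4.07), on its 1 measured probe. miR-1224 was higher by 1.78 ± 0.03, or 3.44-fold (3.32 to 3.56), with 1.89, 1.79 and 1.67 on its probes from shorter to longer. miR-494 was higher by 1.26 ± 0.03, or 2.39-fold (2.30 to 2.49), with 1.26 on each probe. These are ranks 1, 2 and 3 of the 135 measured mouse entries in this comparison. miR-720 differed by -0.30 ± 0.01, with -0.33 and -0.26 on its probes, so it was 1.23-fold higher in PR, at rank 109. The rule of size was passed upward by 3 of the 4 measured entries, and over all 135 measured entries by 4 (2.96%). Downward it was passed by none of the 4 and by 1 of the 135 (0.741%). The list was kept for this contrast, so nothing is read from these counts. miR-494 fell short of the rule with the percentile over all probes (0.89), with detection required in every spot (0.99) and with normexp correction (0.78). With normexp, which adds an offset of 50 intensity units, miR-709 was at 1.002. The median over the 4 was 1.52, and over the other 131 measured entries it was 0.06.

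EA against LT set the rewarming animals against torpid ones. miR-709 was higher in EA by 1.25 ± 0.03, or 2.38-fold (2.29 to 2.47), and miR-1224 by 1.08 ± 0.02, or 2.12-fold (2.06 to 2.18). They were ranks 1 and 2 of 135, and the only 2 measured entries past the rule upward (1.48% of the measured entries). Downward 2 entries passed (1.48%), neither of them listed. miR-494 was higher by 0.43 ± 0.02, or 1.35-fold (1.31 to 1.38). It ranked 4 and fell short of the rule. miR-720 differed by -0.14 ± 0.01, close to the median of -0.09 over all 135 entries, and turned positive under 2 other scalings (0.07 and 0.02). Both upward calls were lost when the percentile ran over all probes, with miR-709 at 0.9998 just under the threshold and miR-1224 at 0.83, and with normexp background correction, at 0.65 and 0.88.

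LT against PR compared torpor with the season of activity. No listed entry passed the rule, and 3 of the 135 measured entries passed it upward (2.22%). miR-494 was higher in LT by 0.83 ± 0.03 (1.78-fold), at rank 6. miR-1224 was higher by 0.70 ± 0.03 and miR-709 by 0.70 ± 0.05, each 1.62-fold, at ranks 8 and 9. miR-720 differed by -0.16 ± 0.01. For miR-709 and miR-1224 the step between EA and LT was larger than that between LT and PR. For miR-494 it was smaller as scaled here, but larger under 2 of the alternatives. The percentile over all probes on the linear scale gave 0.64 for EA minus LT and 0.44 for LT minus PR, and the scanner program's total gene signal gave 0.54 and 0.50 in that order.

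**Figure D2:**
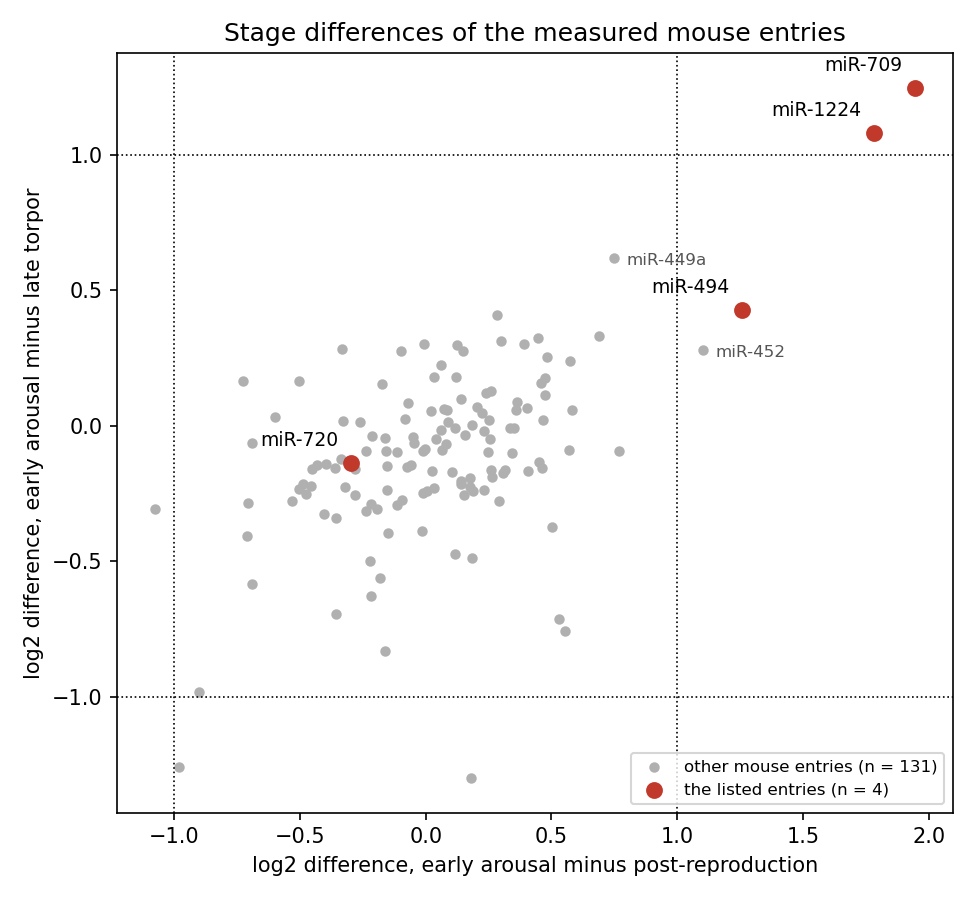
Log2 difference of EA minus PR (horizontal) and of EA minus LT (vertical) for the 135 measured mouse entries, 1 point each, with the listed entries in red. Dotted lines mark log2 differences of 1 and -1. miR-709 (1.94 and 1.25) and miR-1224 (1.78 and 1.08) lie outside the cloud at the upper right, miR-494 (1.26 and 0.43) lies to the right of it, and miR-720 (-0.30 and -0.14, the vertical value positive under 2 other scalings) lies inside it.

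Among measured entries outside the list, the nearest to miR-709 in the plane of these differences, over 3 arrays, was miR-452 at a distance of 1.28 log2 units, with differences of 1.10 against PR and 0.28 against LT. miR-449a followed at 1.35 and miR-574-5p at 1.55. miR-1224 lay much nearer, at 0.23, and miR-494 at 1.07. miR-720 lay 2.63 units from miR-709 and had close company of its own: miR-199b* at 0.03, miR-425 at 0.04 and miR-185 at 0.07. At the edge of the rule for EA against PR, miR-378 was just inside at -1.08 and miR-500 just outside at -0.98. For EA against LT, miR-1224 itself was just inside at 1.08, with miR-34a just outside at -0.98.

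The other 6 listed entries had no probe detected in PR. In EA 4 of them were detected, in LT 3, and miR-711 and miR-762 on no array.

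miR-483 was highest in EA on each of its 4 probes. Its stretch is 149840873 to 149840885 on mouse chromosome 7 (mm9), with probe ends 9 to 12 bases apart. Its brightest probe had 30.1 ± 1.80 units in EA, 10.7 ± 2.16 in LT and 5.46 ± 2.28 in PR (5 spots each). From the shortest to the longest, the 4 probes had 12.3, 26.2, 30.1 and 25.8 units in EA, against 5.75, 9.003, 10.7 and 9.62 in LT and 4.05, 2.27, 5.46 and 4.01 in PR. The spots of the second probe varied most in EA, with an SD of 11.7. Probes detected numbered 4 in EA, 3 in LT and 0 in PR.

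miR-188-5p kept the same order. It is assigned to 6825157 to 6825169 on the mouse X chromosome (mm9). Its 4 probes had 17.4, 17.7, 19.1 and 22.0 units in EA, against 10.9, 11.3, 11.6 and 11.3 in LT and 3.55, 6.55, 5.06 and 5.92 in PR. All 4 probes were detected in EA and in LT, and none in PR. The values of the 3 stages did not overlap over the probes.

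miR-705, with its target on mouse chromosome 6 at 85286335 to 85286347 (mm9), was brighter in both hibernation stages than in PR on every probe, while EA and LT were near each other. Its 4 probes had 11.6, 9.19, 13.0 and 15.3 units in EA, against 10.6, 10.5, 11.98 and 16.8 in LT and 3.0, 3.58, 6.31 and 7.40 in PR. EA was higher than LT on 2 of the probes and lower on the other 2.

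miR-671-5p was at the limit of detection. The mouse target is at 24097960 to 24097972 on chromosome 5 (mm9). Its longest probe had 14.5 ± 2.01 units in EA, 6.52 ± 1.36 in LT and 4.43 ± 1.48 in PR. It was the only probe detected, and only in EA. The probe with ends 11 bases apart had 8.65, 3.75 and 2.26 units in the same order of stages, and the shorter probes had at most 2.82.

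miR-711 (mouse chromosome 9, 108872021 to 108872036) and miR-762 (mouse chromosome 7, 134852057 to 134852069, both mm9) were detected nowhere. The probe means of miR-711 ran between -2.18 and 1.28 units in EA, -2.15 and -1.02 in LT and -2.16 and -0.672 in PR. Those of miR-762 were all below 0. Negative control spots had medians of 1.36, 1.69 and 1.21 units and SDs of 3.61, 4.13 and 11.6 in EA, LT and PR. No change between stages can be read for these entries.

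**Figure D3:**
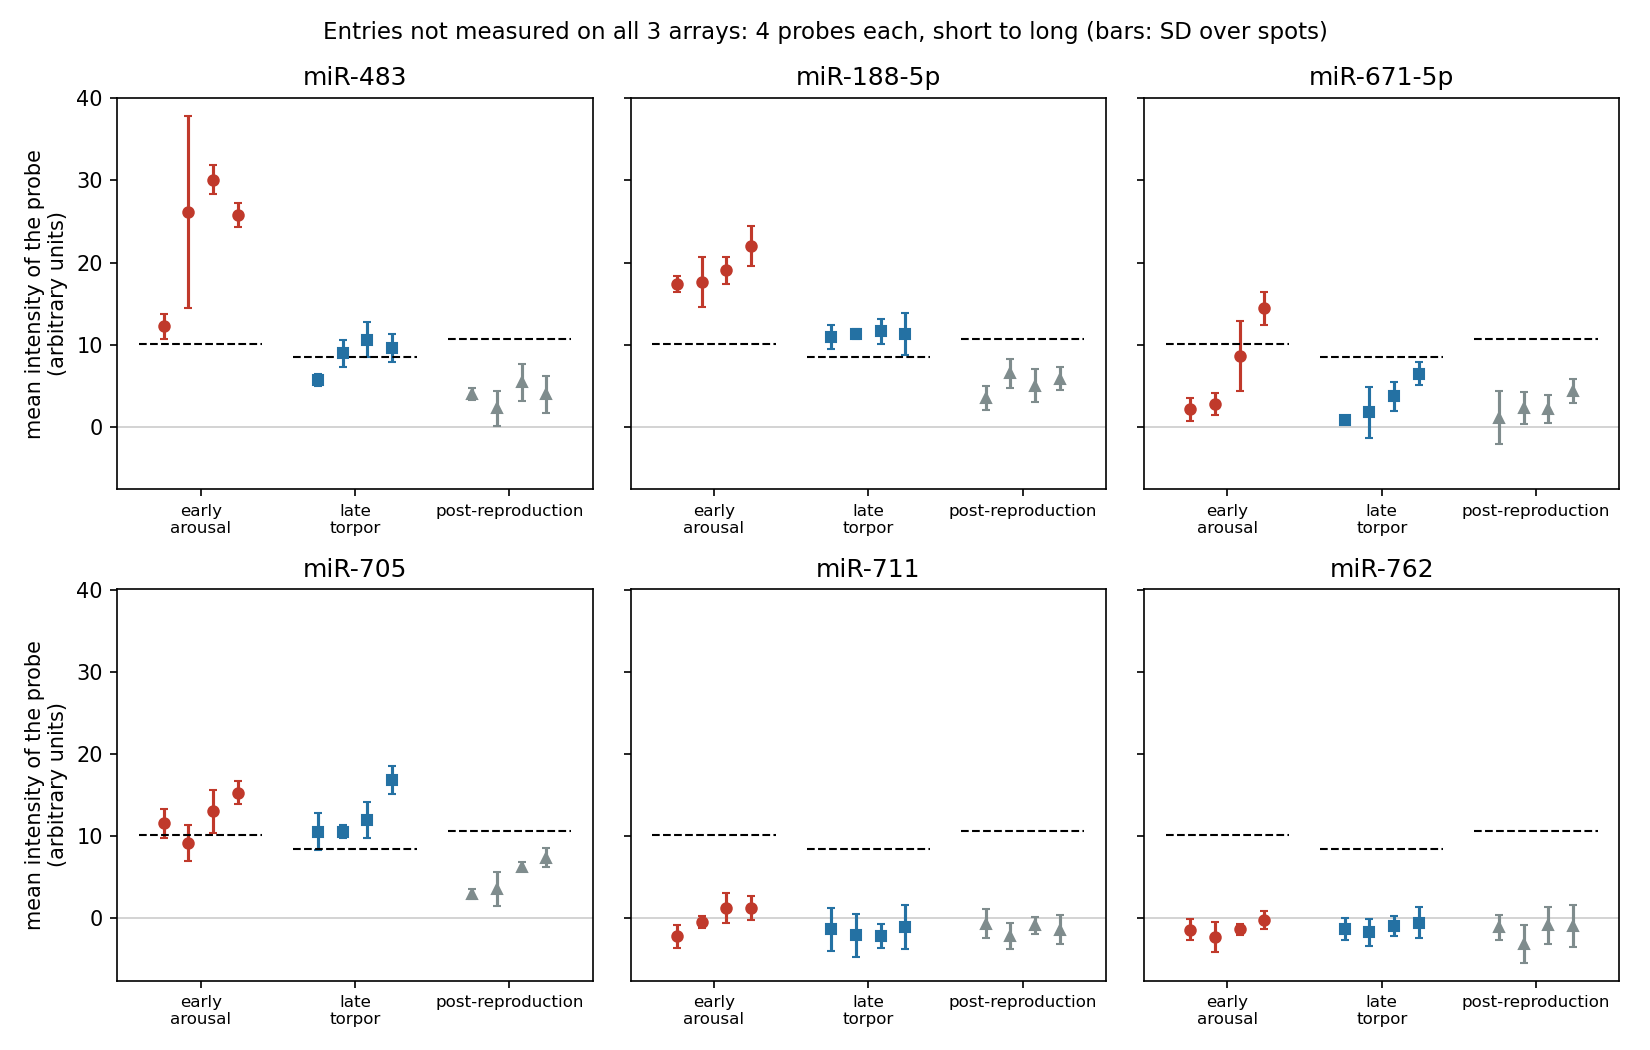
Mean intensity (arbitrary units) of the 4 probes, from short to long within each stage, of miR-483, miR-188-5p, miR-671-5p, miR-705, miR-711 and miR-762 in EA, LT and PR. Bars are the SD over spots, and dashed lines mark the dimmest spot called well above background on each array. miR-483 and miR-188-5p step down from EA through LT to PR, miR-705 is near equal in EA and LT, and miR-711 and miR-762 lie around 0.

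For an entry detected on 1 of 2 arrays only a bound can be given: its brightest probe against the dimmest spot well above background on the other array. As scaled here, miR-483 was at least 3.20-fold higher in EA than in PR, miR-188-5p at least 2.33-fold, miR-705 at least 1.62-fold and miR-671-5p at least 1.53-fold. Over 5 alternatives in scaling or floor, the lowest bounds were 2.47-fold for miR-483, 1.80-fold for miR-188-5p, 1.25-fold for miR-705 and 1.18-fold for miR-671-5p. These 4 are among 16 of the 567 mouse entries that were detected in EA and not in PR (2.82%), and none of the 10 was among the 7 with the opposite pattern (1.23%). The list was kept with these arrays in view, so the counts describe it and do not support it. Against LT, the bound of miR-671-5p was 1.69-fold or more in EA, the 1 listed entry among 7 of 567 detected in EA and not in LT (1.23%). miR-705, miR-188-5p and miR-483 were among 17 entries detected in LT and not in PR (3.0%), and 2 had the opposite pattern (0.353%), none of them listed. The bounds were at least 1.79-fold higher in LT for miR-705, 1.23-fold for miR-188-5p and 1.12-fold for miR-483, of which that of miR-188-5p fell below 1 under 1 other scaling and that of miR-483 under 2.

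EA and LT could be compared directly for 145 entries with probes detected on both of these arrays, a comparison added after the data were seen. Past the rule upward were 3 of them (2.07%). miR-483 was at rank 1, with a log2 difference of 1.47 ± 0.11, or 2.78-fold (2.39 to 3.22), and miR-709 and miR-1224 were the others. The 3 probes of miR-483 compared had 9.003 to 10.7 units in LT, close to the dimmest spot well above background there (8.49). This comparison was made with the main scaling only. miR-188-5p was higher by 0.74 ± 0.06, or 1.68-fold (1.54 to 1.82), at rank 4 and short of the rule. miR-705 differed by 0.04 ± 0.09, or 1.03-fold with an interval of 0.903 to 1.16, at rank 45.

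The other arm of a hairpin is a separate readout of the same precursor. For miR-483 it did not follow. The probe of miR-483* with ends 17 bases apart had 16.6 ± 1.25 units in EA, 16.3 ± 1.98 in LT and 23.8 ± 3.39 in PR. Its log2 difference was -0.33 ± 0.08 for EA minus PR and 0.02 ± 0.07 for EA minus LT. The entries named for this precursor thus stood in opposite order between EA and PR. That order rests on 1 measured probe for miR-483* and on a bound for miR-483, which was not detected in PR. Whether both signals came from the same squirrel precursor was not tested.

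For miR-671 both arms were detected only in EA. miR-671-3p was detected on 1 of its 4 probes, which had 31.4 units in EA, 0.563 in LT and 2.27 in PR. Its other probes reached at most 7.26 in EA, although their target stretches overlap that of the bright probe and differ from it by a base or a pair of bases at an end. miR-188-3p was detected on no array.

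The miRNAs that lie with miR-188 in Clcn5 differed among themselves. Of 9 such names, 7 were on the array and 2 were measured. miR-500 was lower in EA, with a log2 difference of -0.98 ± 0.08 against PR and of -1.26 ± 0.08 against LT, and the second of these passed the rule. miR-532-5p was at 0.14 against PR and -0.21 against LT. miR-532-3p was detected in EA and not in PR, at least 1.39-fold higher as scaled, but on 1 probe close to background. That probe had 13.2 units in EA, 10.1 in LT and 10.6 in PR, where 2 of its 5 spots were well above background.

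miR-15a and miR-16, which miR-709 was reported to repress in mouse cells, were at 0.57 and 0.45 for EA minus PR, at -0.09 and -0.13 for EA minus LT, and at 0.66 and 0.58 for LT minus PR. None of these passed the rule. miR-709 stood above them in both comparisons of EA.

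Most of the listed entries have short target stretches, a property of the array design and not of these RNA samples. The shortest target stretch had ends 9 bases apart in the median listed entry (8 to 13) and 15 bases apart in the median of 550 other mouse entries with coordinates (9 to 21). Ends at most 10 bases apart occurred in 8 of the 10 listed entries (80%) and in 48 of the 550 others (8.73%). The exceptions were miR-494 and miR-711, with shortest stretches of 13 and 12. A full set of 4 probes was given to 7 of the 10 and to 252 of the 550 others (45.8%).

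**Figure D4:**
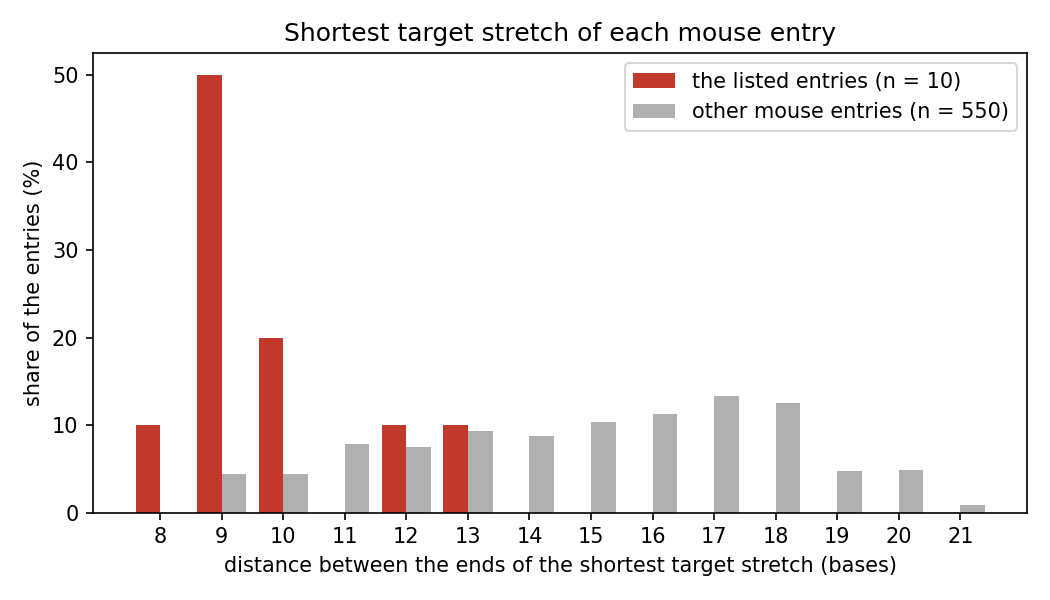
Share of entries (%) by the distance in bases between the ends of the shortest target stretch, for the 10 listed entries and 550 other mouse entries. Most of the listed entries lie at 8 to 10 bases, where the other entries hold 8.73% of their number.

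The other entries with short stretches are those that remained after the list was chosen on these arrays, so they are not an independent comparison. None of those 48 was measured and 8 were detected on any array, so among the measured entries with coordinates only miR-709, miR-1224 and miR-720 had ends at most 10 bases apart. For 2 of the 131 other measured entries no such distance was available here. Of the 48, 5 were detected in EA and not in PR (miR-135a*, miR-671-3p, miR-680, miR-744 and miR-770-3p), and 2 had the opposite pattern (miR-291b-5p and miR-715). Of 502 other entries with longer stretches, these counts were 7 and 5. Among the 5, miR-680 was detected in EA on all 4 probes and the others on 1 of 4. miR-744 reached only 11.8 units there. In PR miR-291b-5p was detected on 2 probes and miR-715 on 1. No difference between short and long stretches is read from these counts. The remaining 40 of the 48 were detected nowhere, so no order of stages can be read for them.

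Detected probes of an entry that differ by 1 base at an end were compared on the same array, as a description of the probes. For miR-720 the longer probe was 5.73-fold brighter in EA, 5.34-fold in LT and 5.44-fold in PR. For miR-1224 the step between ends 9 and 10 bases apart was 1.63, 1.73 and 1.73 log2 units in EA, LT and PR, and the next step was 1.05, 1.02 and 1.17. For miR-709 the step was 1.42 in EA and 1.44 in LT. These steps varied little between stages, which restates that the probes compared had nearly the same stage difference although their intensities differed by several fold. The shortest probe of miR-1224 was detected only in EA, where the next probe was 4.08 log2 units brighter. Its step cannot be compared between stages.

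Other listed entries had small or negative steps. The longer probe of miR-494 was dimmer, with a step of -1.52 in EA, -1.42 in LT and -1.52 in PR. The 4 probes of miR-188-5p differed little, with steps of 0.01 to 0.20 in EA and -0.06 to 0.06 in LT. For miR-483 the steps from shorter to longer probes were 1.02, 0.29 and -0.22 in EA, and 0.24 and -0.14 in LT. For miR-705 they were 0.25 in EA and 0.02, 0.17 and 0.51 in LT. The probes of miR-188-5p, miR-483 and miR-705 were dim, with at most 30.1 units in EA and 16.8 in LT. The dimmest spot well above background had 10.1 and 8.49 units there. These dim entries gave most of the listed entries' steps in EA and in LT, and so weigh on the medians that follow. Over all listed entries the median step was 0.29 over 13 steps in EA, 0.17 over 13 in LT and 1.45 over 4 in PR, the last from miR-1224, miR-494 and miR-720 alone. For the other mouse entries it was 1.18 over 109 steps in EA, 1.09 over 127 in LT and 1.08 over 118 in PR. Steps below 0 made up 15.4% of the listed entries' steps in EA, 23.1% in LT and 1 of 4 in PR, and 5.50%, 7.87% and 6.78% of those of the other entries in EA, LT and PR. The listed entries' 13 steps came from 7 entries in EA and 7 in LT, against 102 and 114 other entries. Steps of the same entry are not independent, so these medians and shares rest on few entries.

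miR-705, miR-709, miR-711 and miR-720 carry numbers close to each other, which were given out at about the same time to candidates from mouse. Of 40 other entries from miR-680 to miR-721, 5 were detected on any array. miR-680 came close to the pattern of miR-188-5p, with 22.0 units in EA, 12.6 in LT and 5.90 in PR on its brightest probe, and all 4 of its probes were detected in EA and LT and none in PR. miR-712 had 32.0, 27.3 and 25.4 units, miR-697 had 18.0, 22.4 and 19.4, and miR-715 had 10.97, 17.0 and 13.4 in EA, LT and PR. The other 35 were not detected, so no order of stages can be read for them.

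Markers of other cells were read on the same arrays. The summed intensity of 3 red blood cell miRNAs was 2507 in EA, 4144 in LT and 1993 in PR, and all 3 were measured. That of 5 leukocyte miRNAs, 4 of them measured, was 567, 809 and 632. That of 6 hepatocyte miRNAs, all measured, was 57816, 66436 and 56748. Each of these unscaled sums was highest in LT. The hepatocyte sum was mostly miR-122, with 51255 units in EA on its brighter probe. As scaled, 2 of the 6 hepatocyte miRNAs were higher in EA than in LT, miR-365 by 0.25 and miR-194 by 0.06. Both were also above PR, by 0.48 and 0.08. The other hepatocyte miRNAs and all measured red blood cell and leukocyte miRNAs were lower in EA than in LT. Against PR, 5 of the 6 hepatocyte, all 3 red blood cell and 1 of the 4 measured leukocyte miRNAs were higher in EA. The median differences were 0.15, 0.53 and -0.19 in that order. The 3 pancreatic and 2 neural markers were detected on no array, and of the 3 muscle markers 1 was detected in EA, 2 in LT and 0 in PR. The part of cell composition in the differences was not tested.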

How the data were processed

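Liver RNA of 3 stages (EA, early arousal; LT, late torpor; PR, post-reproduction) was hybridised, 1 pool per stage, to 1 array each. Per the file headers and the submitters' processing notes, the authors read the arrays with Agilent Feature Extraction 9.5.3.1. The deposited intensity is the spot signal after subtraction of a fitted spatial background surface, not scaled between arrays, per the file headers. The detection and outlier flags are other values that the same program set, per the file headers. The deposited series table held the same intensity at all 12493 spots.

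From these deposited intensities the following was computed. Control spots (953 per array) and outlier spots (398 in EA, 280 in LT and 317 in PR) were left out. No spot of an entry was saturated. Spots at or below 0 were set to the lowest spot well above background. log2 intensities were averaged over a probe's spots, scaled by the 75th percentile of the 250 probes that all arrays detected, and averaged over such probes of an entry. With 1 array per stage no test was made, and precision is limited by the number of arrays. Python 3.11.15, numpy 2.4.6 and pandas 2.3.3 were used, with limma 3.58.1 for normexp. The calculation was checked on simulated data. Alternatives in scaling, background, spot and probe summary, detection and outlier flags were computed.

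Named entries are the 10 listed, their other arms, their neighbours by number (at most 4 by name where values are given) or by host gene, the reported targets of miR-709, the nearest 3 entries to miR-709 and to miR-720, and those at the edge of the rule of size. Short-stretch entries and the viral entry were named after their values were seen. The entries and lists were chosen with earlier results of these data known. Target positions are those of the array design (mouse build mm9, per the file headers), and the headers do not state whether they count the first base. miRNA and probe sequences and a mouse annotation were not used here.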

Additional observations from a re-analysis of the deposited data

Results flagged for a closer look

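mghv-miR-M1-2, an entry of a mouse herpesvirus, was detected on every array, outside the comparisons of the mouse entries. The brightest of its probes reached 22.2 intensity units in EA, 26.5 in LT and 26.6 in PR. Of the other 9 viral entries only mghv-miR-M1-8 was detected, with 10.02 units in LT. The source of this signal was not tested.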

How the results depend on the processing

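No paired analysis was possible because each stage was 1 pool on 1 array, and for the same reason no array could be left out. Over 12 alternatives, the count of listed entries past the rule of size was 2 or 3 for EA against PR (3 as reported) and 0 in each for LT against PR. For EA against LT it was 2 as reported, 3 with probes detected on both arrays compared, and 0 both with the 75th percentile over all probes and with normexp, whose offset shrinks differences of dim entries by construction. The percentile over all probes includes undetected probes, whose spots at or below 0 were set to the dimmest spot well above background. That spot had 10.1 units in EA and 8.49 in LT. Under this scaling the median of all 135 entries moved from -0.09 to -0.34 for EA minus LT. The median of all also moved from 0.06 to -0.31 for EA minus PR under that scaling, and from 0.13 to -0.26 for LT minus PR with the percentile of linear intensity over all probes. miR-494 fell short for EA against PR with all probes (0.89), normexp (0.78) and detection in every spot (0.99). miR-720 turned to 0.073 for EA minus LT with the percentile of linear intensity over all probes and to 0.015 with median scaling. For EA over PR, the bound of miR-188-5p fell below 2-fold, to 1.80, with the percentile over all probes. For LT over PR, the bound turned to 0.941 for miR-188-5p and 0.852 for miR-483 with the percentile of linear intensity over all probes, and to 0.980 for miR-483 without scaling. The median of the measured listed entries minus that of all measured entries was 0.81 to 1.48 for EA minus PR. It was 0.53 to 0.90 for EA minus LT and 0.29 to 0.57 for LT minus PR, lowest with normexp each time. Scaling by 1 value per array cannot alter this gap, which was 1.46, 0.85 and 0.57 both as reported and without scaling. The list was chosen on these same arrays, so nothing is read from the gap. Over all entries, the calls for EA against PR were 4 upward and 1 downward as reported, 2 and 8 with the percentile over all probes, 3 and 3 with that of linear intensity or no scaling, and 2 and 0 with normexp. For EA against LT they were 2 and 2 as reported, 0 and 5 with the percentile over all probes and 0 and 0 with normexp. Signal over background limits miR-188-5p, miR-483, miR-671-5p and miR-705 to bounds against PR and leaves miR-711 and miR-762 without a value.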
